A study of Mus musculus with 36 samples.

Results

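The genes described here are Ly6a, Ly6c1, Ly6c2 and Ly6e, 4 mouse genes that encode lymphocyte antigen 6 (Ly6) surface proteins. They were found as the array probes whose accession maps to those symbols, which gave 5 probes for 4 of the 32492 gene names tested. Ly6a was read by the probe for NM_010738, Ly6c2 by that for NM_001099217 and Ly6e by that for NM_001164036. Ly6c1 had a brighter probe for NM_001252055, which stands for the gene below, and a dimmer one for NM_001252058. All 5 probes were well above background on all 36 arrays, so none of them entered through the group in which it was high. The 4 genes were chosen with their levels on these arrays already known, so their values are given as a description and without a test. Ly6c1 and Ly6c2 are close relatives in sequence, and a probe for one may take up signal from the other.

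The arrays measured RNA of Bhas 42 cells, mouse fibroblasts of BALB/c 3T3 origin that carry a viral Ha-ras oncogene and are used in cell transformation assays, in 9 groups of 4 samples. Exposure began on day 4 of culture in all groups and RNA was taken on day 6, 48 h later. The particle groups were NM-203, a synthetic amorphous silica, at 1, 2 and 5 µg/cm² and diatomaceous earth (DE) at 5 µg/cm², which share one set of controls given 2% water. Min-U-Sil 5, a crystalline silica, was given at 20 µg/cm² and has separate controls, also with 2% water. TPA, a phorbol ester and tumour promoter, was given at 0.05 µg/ml, and its controls received the solvent DMSO at 0.1%. All groups are a single established line, so every control carries the oncogene too, and no label ties an array to one culture, so errors measure the spread between these samples, which may be technical. Values are log2 spot intensity minus the array's 75th percentile. Changes are log2 differences between group means from a limma fit of all 9 groups, with their standard error (SE) after ±. A gene is said to have risen or fallen, or is called, where the Benjamini-Hochberg adjusted p of that fit is under 0.05.

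Ly6 proteins are small, disulfide-bonded and mostly held in the outer leaflet of the plasma membrane by a glycosylphosphatidylinositol (GPI) lipid anchor. In the mouse, several of their genes lie side by side on chromosome 15. Ly6a encodes Sca-1, the stem cell antigen used to sort blood stem cells and also found on fibroblasts and mesenchymal progenitors. Ly6c1 and Ly6c2 encode the Ly6C antigen, used to separate monocyte subsets and also found on some T and endothelial cells. Ly6e encodes an antigen first described on thymocytes that acts in placental syncytin binding and in restricting some viruses. Ly6a, Ly6c and Ly6e transcripts are known to respond to interferons in several mouse cell types.

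Since the values of Ly6c1 and Ly6c2 went together, the RefSeq promoter windows of both (250 bases before to 50 after a transcript start, build GRCm38.p6, minus strand) are shown. RefSeq held 4 windows for the 4 genes, 2 for each of these. The Ly6c1 window is chr15:75048788-75049087 and the Ly6c2 window chr15:75111922-75112221. Capitals mark the runs of 12 or more bases that are identical in an alignment of both windows.
Ly6c1: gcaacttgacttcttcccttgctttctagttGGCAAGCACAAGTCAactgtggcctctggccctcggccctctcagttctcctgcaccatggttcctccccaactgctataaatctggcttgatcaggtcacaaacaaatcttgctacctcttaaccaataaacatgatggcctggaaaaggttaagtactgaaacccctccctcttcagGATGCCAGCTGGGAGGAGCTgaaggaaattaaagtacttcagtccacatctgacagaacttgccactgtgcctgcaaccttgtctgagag
Ly6c2: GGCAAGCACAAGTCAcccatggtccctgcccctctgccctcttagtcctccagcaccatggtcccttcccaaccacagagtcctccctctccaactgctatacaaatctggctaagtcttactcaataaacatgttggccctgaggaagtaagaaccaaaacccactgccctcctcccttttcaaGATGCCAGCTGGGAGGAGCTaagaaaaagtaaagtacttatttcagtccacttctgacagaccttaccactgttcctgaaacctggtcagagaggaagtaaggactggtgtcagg
The alignment paired 266 bases, of which 208 (78.2%) were identical, and it held 2 such runs, the longer of 20 bases. On both strands, the interferon-stimulated response element GAAANNGAAA, the interferon-gamma activated site TTCNNNGAA, the AP-1 site TGANTCA and the NF-kB site were in 0 of the 4 windows. Among 32851 windows of all genes, these letters were found in 3.44%, 8.30%, 7.81% and 8.46%. The TATA box TATAAA and CCAAT were each in the Ly6c1 window shown and in none of the other 3, against 13.6% and 37.4% of all windows. These are matches of letters within short windows and say nothing about binding.

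All 4 genes had higher mean levels in every exposure than in its own control. The median change of the 4 genes was 0.64, 1.07 and 1.70 for NM-203 at 1, 2 and 5 µg/cm². It was 1.26 for DE, 0.98 for Min-U-Sil 5 and 1.70 for TPA. The median over all genes tested lay between -0.04 and 0.11 in these comparisons, the last for NM-203 at 2 µg/cm².

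**Figure D1:**
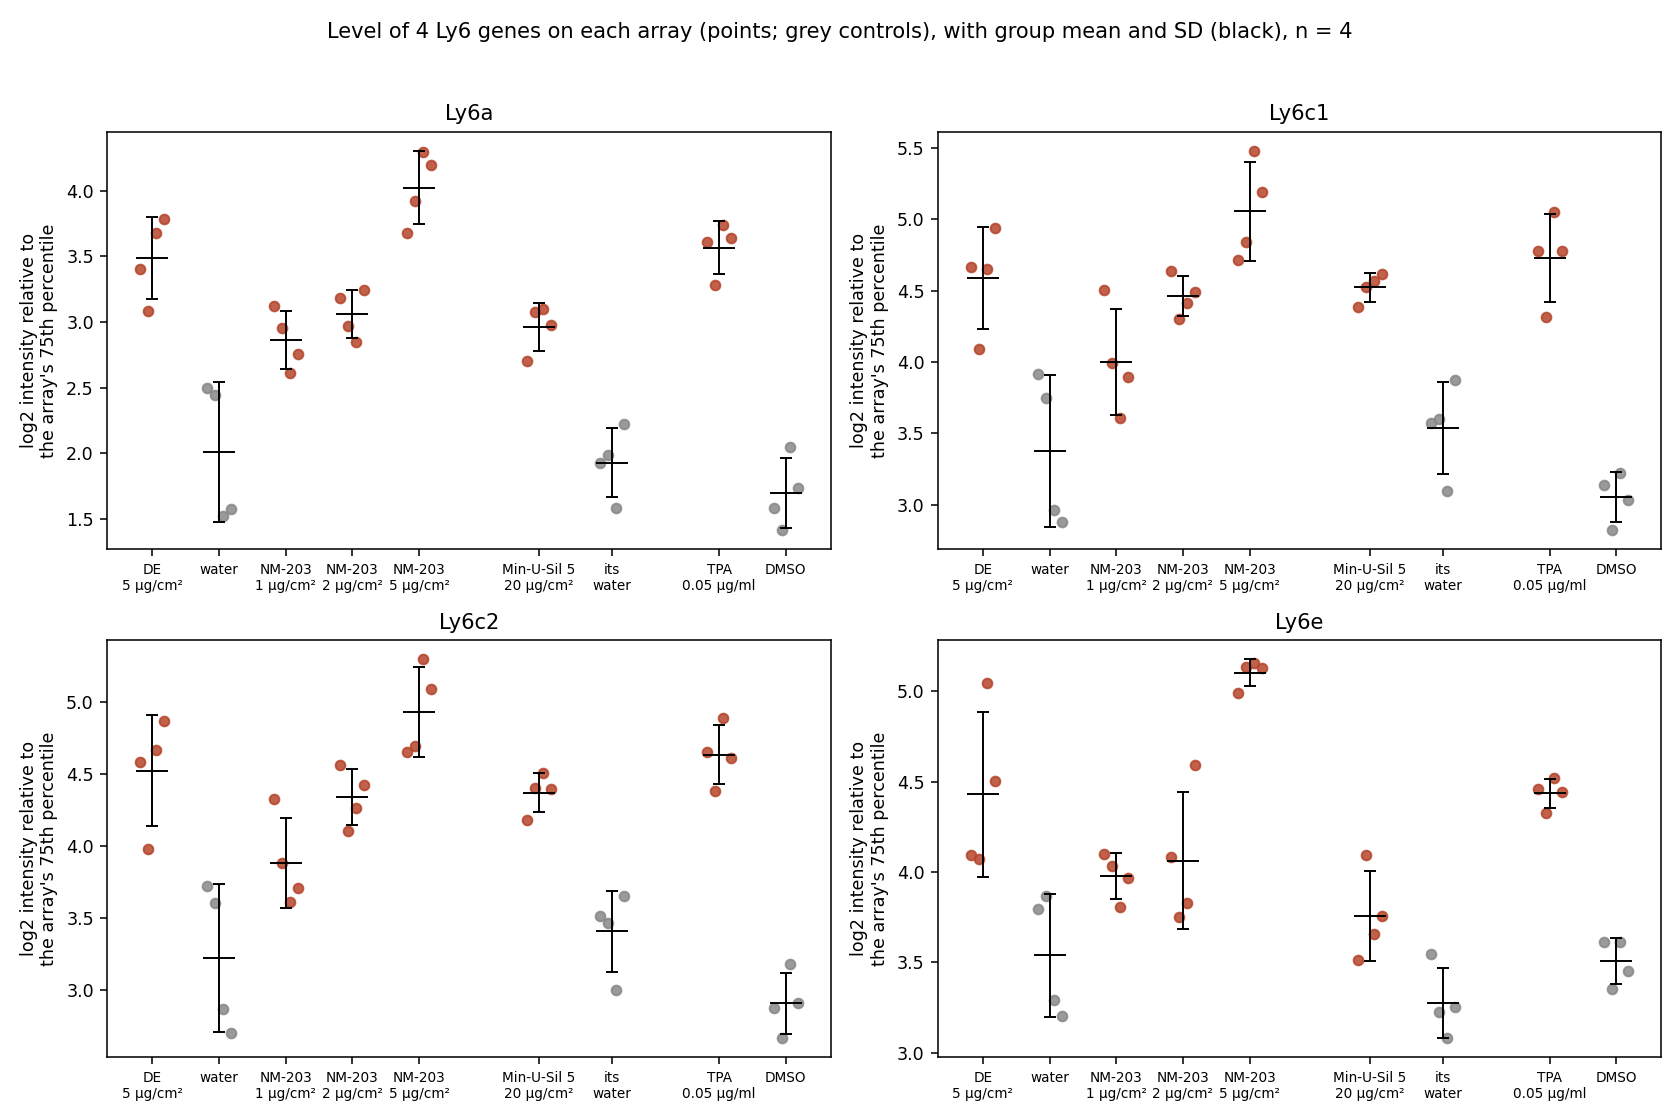
Level of each of the 4 genes on every array. Points are arrays (log2 intensity relative to the array's 75th percentile, red for exposures and grey for controls), black marks are the group mean with its SD (n = 4), and the vertical scale differs between panels. The 4 arrays of NM-203 at 5 µg/cm² lie above all 4 water arrays in each panel, and the water arrays themselves split into a higher and a lower pair.

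Ly6a, which encodes Sca-1, showed the largest change of the 4 genes in the NM-203 1 and 5 µg/cm², DE, Min-U-Sil 5 and TPA comparisons. Along the NM-203 series it read 2.50, 2.45, 1.52 and 1.57 in water, 3.12, 2.96, 2.61 and 2.76 at 1 µg/cm², 3.18, 2.97, 2.85 and 3.25 at 2 µg/cm², and 3.68, 3.93, 4.30 and 4.20 at 5 µg/cm². No array of any dose overlapped the water arrays, of which replicates 3 and 4 lay well below replicates 1 and 2. The changes against water were 0.85 ± 0.20, 1.05 ± 0.20 and 2.02 ± 0.20 from the lowest to the highest dose, the last a 4.05-fold higher level. With DE it read 3.40, 3.08, 3.68 and 3.79, above all water arrays, with a change of 1.48 ± 0.20 (2.79-fold). Min-U-Sil 5 arrays read 2.70, 3.07, 3.10 and 2.98, against 1.92, 1.98, 1.58 and 2.22 in its water, without overlap and with a change of 1.04 ± 0.20. TPA arrays read 3.61, 3.28, 3.74 and 3.64, against 1.58, 1.41, 2.05 and 1.74 in DMSO, also without overlap, with a change of 1.87 ± 0.20 (3.66-fold).

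Ly6c1, one of the pair that encodes the Ly6C antigen, read 3.92, 3.74, 2.96 and 2.88 in water, 4.51, 3.99, 3.61 and 3.89 at 1 µg/cm² of NM-203, 4.64, 4.30, 4.41 and 4.49 at 2 µg/cm², and 4.72, 4.84, 5.48 and 5.19 at 5 µg/cm². The arrays of the lowest dose overlapped those of water, and the arrays of the other doses did not. Its changes were 0.62 ± 0.22, 1.09 ± 0.22 and 1.68 ± 0.22 with rising dose. DE arrays read 4.67, 4.09, 4.65 and 4.94 and lay above all water arrays, with a change of 1.21 ± 0.22. Min-U-Sil 5 arrays read 4.38, 4.52, 4.57 and 4.62, against 3.57, 3.60, 3.09 and 3.87 in its water, with a change of 0.99 ± 0.22. TPA arrays read 4.77, 4.31, 5.05 and 4.77, against 3.14, 2.82, 3.22 and 3.03 in DMSO, with a change of 1.67 ± 0.22 (3.19-fold). Neither of these last pairs of groups overlapped. The dimmer Ly6c1 probe gave somewhat smaller changes in the same direction: 0.51, 0.87 and 1.36 along the NM-203 doses, 0.97 for DE, 0.87 for Min-U-Sil 5 and 1.62 for TPA, each with an SE of 0.18.

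Ly6c2, the other Ly6C gene, followed Ly6c1 closely. It read 3.72, 3.60, 2.87 and 2.70 in water, 4.32, 3.88, 3.61 and 3.71 at 1 µg/cm² of NM-203, 4.56, 4.11, 4.27 and 4.43 at 2 µg/cm², and 4.65, 4.69, 5.30 and 5.09 at 5 µg/cm², with changes of 0.66 ± 0.21, 1.12 ± 0.21 and 1.71 ± 0.21. Overlap with water was again limited to the lowest dose. DE arrays read 4.59, 3.98, 4.67 and 4.87, a change of 1.30 ± 0.21 above water. Min-U-Sil 5 arrays read 4.18, 4.40, 4.51 and 4.40, against 3.51, 3.46, 3.00 and 3.65 in its water, a change of 0.97 ± 0.21. TPA arrays read 4.65, 4.38, 4.89 and 4.61, against 2.87, 2.66, 3.18 and 2.91 in DMSO, a change of 1.73 ± 0.21 (3.32-fold). None of these 3 exposures overlapped its control.

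Ly6e, the antigen tied to viral restriction, showed the smallest change of the 4 in every comparison. It read 3.80, 3.87, 3.29 and 3.20 in water, 4.10, 4.03, 3.80 and 3.97 at 1 µg/cm² of NM-203, 4.08, 3.75, 3.83 and 4.59 at 2 µg/cm², and 4.99, 5.13, 5.16 and 5.13 at 5 µg/cm². Both lower doses overlapped water, while the arrays of the highest dose lay close together and clear of it. The changes were 0.44 ± 0.18, 0.52 ± 0.18 and 1.56 ± 0.18, the last 2.95-fold. DE arrays read 4.09, 4.07, 5.05 and 4.50, all above the water arrays but widely spread, with a change of 0.89 ± 0.18. Min-U-Sil 5 arrays read 3.52, 4.10, 3.66 and 3.76, against 3.55, 3.22, 3.08 and 3.25 in its water, and these groups overlapped (0.48 ± 0.18). TPA arrays read 4.46, 4.32, 4.52 and 4.44, against 3.61, 3.35, 3.61 and 3.45 in DMSO, without overlap (0.93 ± 0.18).

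Set against all genes, for NM-203 at 5 µg/cm² all 4 genes were called higher, as were 14% of all genes, and all 4 did not overlap water, as did 15.9% of all genes. At 2 µg/cm² 4 were called higher (16.2% of all genes, with 8.85% lower) and 3 did not overlap (14.7%). At 1 µg/cm² 0 were called (0.0431% of all genes higher and 0.0862% in either direction) and 1, Ly6a, did not overlap (2.16%). For DE 4 were called higher (0.557%, with 1.01% called in either direction) and 4 did not overlap (2.59%). For Min-U-Sil 5 3 were called (11.6%) and 3 did not overlap (11.8%), Ly6e being the exception in both, and for TPA 4 were called (4.89%) and 4 did not overlap (7.99%). These contrasts served to choose the genes, and nothing is read from the counts. With only the DE and water arrays in the fit, 0 of the 4 genes were called for DE, at the same changes. The number of all genes called in that fit is not reported here. With arrays centred on their median, 1 of the 4 was called for DE, Ly6a. That centring left 21 of all genes called higher and 6 lower for DE, against 181 and 146. The calls of Ly6e at 2 µg/cm² and for DE were lost under some alternatives. Those of Ly6e for Min-U-Sil 5 and of Ly6a at 1 µg/cm² were gained under others. Nothing is read from these shifts either, and only the changes are given. Ly6e at 2 µg/cm² changed by 0.44 or 0.41 without water replicate 3 or 4. Without NM-203 2 µg/cm² replicate 1 or 4 it changed by 0.52 or 0.35. It changed by 0.72 with the slide as a block and by 0.49 with array weights. For DE, Ly6e changed by 0.81 or 0.78 without water replicate 3 or 4, and by 0.68 without DE replicate 3. For Min-U-Sil 5, Ly6e changed by 0.56 without Min-U-Sil 5 replicate 1 and by 0.57 without replicate 1 of its water. It changed by 0.53 there with the slide as a block and by 0.50 with array weights. Ly6a at 1 µg/cm² changed by 1.02 without water replicate 1, 1.00 with the slide as a block and 0.87 with array weights.

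**Figure D2:**
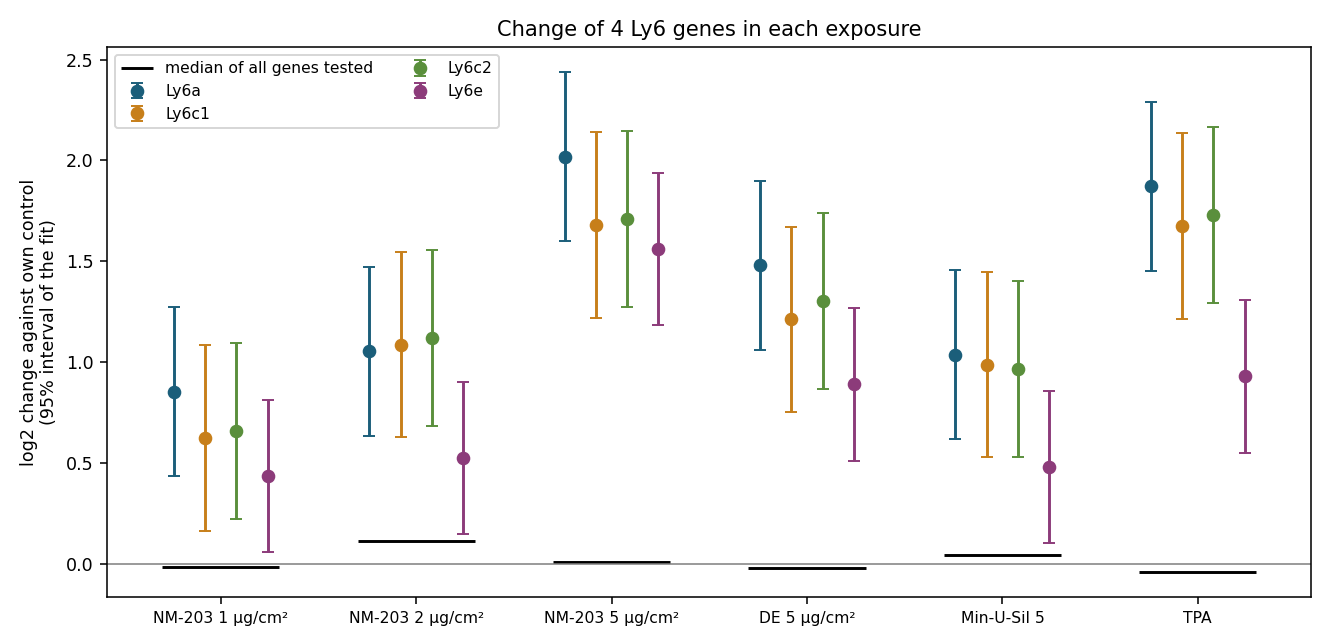
Log2 change of each gene against its own control (points, with the 95% interval of the fit), and the median change of all genes tested (black lines near 0). Ly6e lies lowest of the 4 in each exposure, at 0.44 to 1.56, and Ly6a at 5 µg/cm² of NM-203 is highest, at 2.02.

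Among all 32492 gene names ordered by change, the 4 genes stood nearest the top for DE, where Ly6a was 24th, Ly6c2 59th, Ly6c1 90th and Ly6e 418th. For TPA, Ly6a was 147th and Ly6e 1315th. For NM-203 at 5 µg/cm², they ranked between 226th (Ly6a) and 524th (Ly6e). At 2 µg/cm² the places ran from 1640th (Ly6c2) to 6646th (Ly6e), and for Min-U-Sil 5 from 1400th (Ly6a) to 6270th (Ly6e). At 1 µg/cm² Ly6a was 296th, Ly6c2 738th, Ly6c1 854th and Ly6e 1893rd.

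Across water and the 3 NM-203 doses, the fitted slopes per µg/cm² were 0.37 ± 0.04 for Ly6a, 0.32 ± 0.04 for Ly6c1, 0.32 ± 0.04 for Ly6c2 and 0.30 ± 0.03 for Ly6e. The step from 1 to 2 µg/cm² was small for Ly6a (0.20 ± 0.20) and Ly6e (0.09 ± 0.18) and larger for Ly6c1 (0.46 ± 0.22) and Ly6c2 (0.46 ± 0.21). The step from 2 to 5 µg/cm² was 0.96 ± 0.20 and 1.04 ± 0.18 for Ly6a and Ly6e and 0.59 for both Ly6c genes (SE 0.22 and 0.21). The arrays of 2 µg/cm² and of water shared no slide and were scanned on different days. The place of that dose in the series thus also carries any slide or scan-day difference.

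At the same dose by area, 5 µg/cm², NM-203 gave higher levels than DE by 0.54 ± 0.20 for Ly6a, 0.47 ± 0.22 for Ly6c1, 0.41 ± 0.21 for Ly6c2 and 0.67 ± 0.18 for Ly6e. The arrays of both groups overlapped for each gene. With normexp and quantile normalization these differences were 0.34, 0.27, 0.23 and 0.47, and without DE replicate 2 they were 0.40, 0.30, 0.23 and 0.55. Over all alternatives they ran from 0.34 to 0.66 for Ly6a and from 0.27 to 0.61 for Ly6c1. For Ly6c2 they ran from 0.23 to 0.53 and for Ly6e from 0.47 to 0.88. The genes were chosen on these arrays, so no threshold is applied to these differences. The change by NM-203 at 5 µg/cm² minus that by TPA was 0.15 ± 0.29 for Ly6a, 0.01 ± 0.32 for Ly6c1 and -0.02 ± 0.30 for Ly6c2, with 95% intervals from -0.64 to 0.74 over the 3 genes, and 0.63 ± 0.26 for Ly6e, with an interval from 0.10 to 1.17. The Min-U-Sil 5 change minus the TPA change was -0.84 ± 0.29 for Ly6a, -0.69 ± 0.32 for Ly6c1, -0.76 ± 0.30 for Ly6c2 and -0.45 ± 0.26 for Ly6e, whose interval ran from -0.98 to 0.09.

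In the order of the 9 groups, Ly6a, Ly6c1 and Ly6c2 were highest with 5 µg/cm² of NM-203, followed by TPA and DE, and lowest in DMSO. Means ± SD (n = 4) of Ly6a were 4.03 ± 0.28 with NM-203 at 5 µg/cm², 3.57 ± 0.20 with TPA and 3.49 ± 0.32 with DE. They were 3.06 ± 0.19 and 2.86 ± 0.22 with NM-203 at 2 and 1 µg/cm² and 2.96 ± 0.18 with Min-U-Sil 5. They were 2.01 ± 0.54 in water, 1.93 ± 0.26 in the water of Min-U-Sil 5 and 1.70 ± 0.27 in DMSO. Neighbours in this order overlapped, except that the lowest NM-203 dose lay clear of water. For both Ly6c genes all neighbours overlapped, from 5.06 ± 0.35 for Ly6c1 with NM-203 at 5 µg/cm² down to 3.05 ± 0.17 in DMSO, and from 4.93 ± 0.31 for Ly6c2 down to 2.91 ± 0.21. For Ly6e, NM-203 at 5 µg/cm² (5.10 ± 0.08) did not overlap TPA (4.44 ± 0.08), the next in order, but overlapped DE (4.43 ± 0.46), all other neighbours overlapped, and the water of Min-U-Sil 5 was lowest (3.28 ± 0.20).

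The arrays lay on 5 slides scanned on 2 days, and water replicates 1 and 2, the higher pair for all 4 genes, were the water arrays of slide 2. The array of the lowest NM-203 dose on slide 2 was also the highest of its group for all 4 genes, and the DE array there was the highest of its group for Ly6a, Ly6c1 and Ly6c2. The 3 DMSO arrays of slide 2 read 1.58, 1.41 and 1.74 for Ly6a, against 2.05 for the DMSO array of slide 1. Within single slides the median change of the 4 genes was 0.82, 0.65 and 1.02 for NM-203 at 1 µg/cm² (slides 1, 2 and 3), and 2.47 and 1.86 at 5 µg/cm² (slides 1 and 3). It was 1.81, 1.16 and 1.43 for DE (slides 1, 2 and 3), 1.12 and 0.88 for Min-U-Sil 5 (slides 4 and 5) and 1.46 for TPA (slide 1). With the slide as a block in the fit the medians were 0.81, 1.55 and 1.96 along the NM-203 doses, 1.39 for DE, 1.04 for Min-U-Sil 5 and 2.06 for TPA. No slide and no scan day held both NM-203 at 2 µg/cm² and water, which applies to every gene compared at that dose. Against the Min-U-Sil 5 water, scanned on the same day as that dose, the median change of the 4 genes was 0.93.

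The genes also varied together from array to array. Over the 36 arrays, which share the array scaling, Pearson's r was 0.995 between Ly6c1 and Ly6c2, 0.973 between Ly6a and Ly6c2, 0.965 between Ly6a and Ly6c1 and 0.907 between Ly6a and Ly6e, against 0.814 between Ly6c1 and Ly6e. After removal of the group means, the same pairs gave 0.973, 0.943, 0.919, 0.692 and 0.558. How much signal the Ly6c1 and Ly6c2 probes share was not tested.

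**Figure D3:**
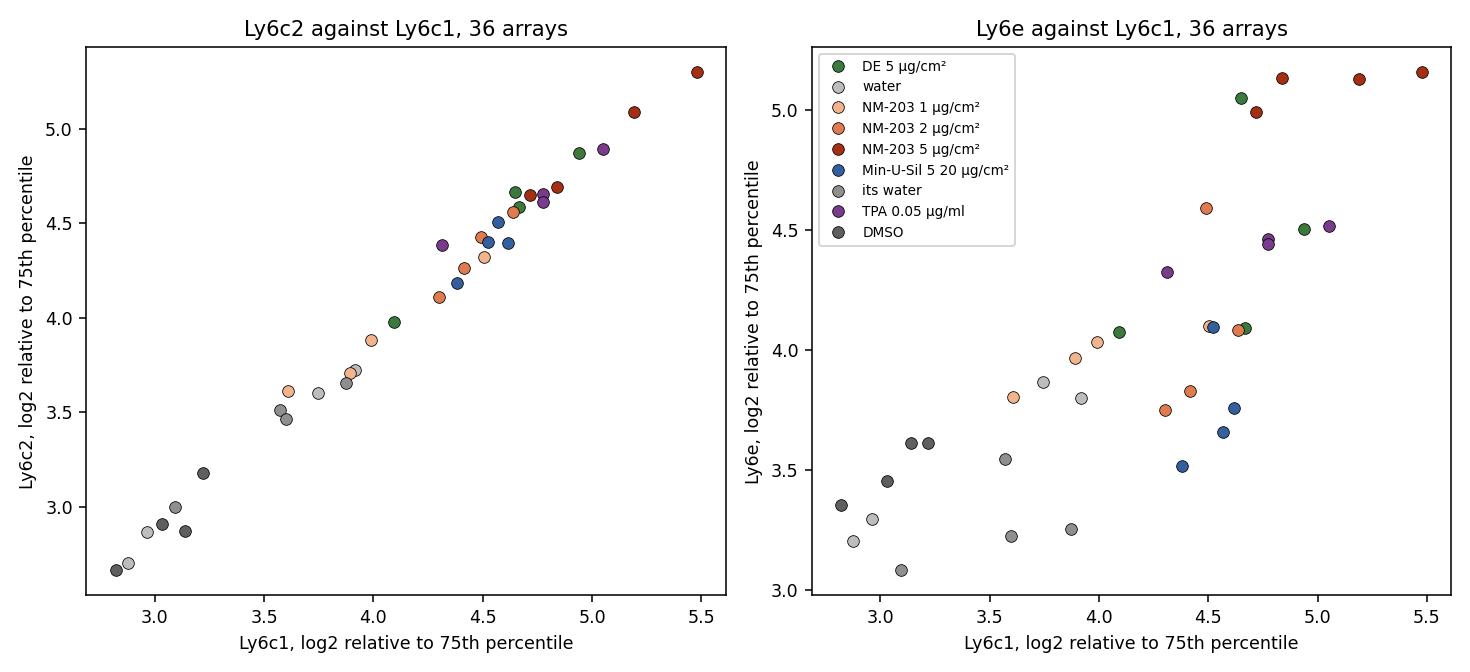
Levels of Ly6c2 (left) and Ly6e (right) against Ly6c1 on the 36 arrays, in log2 relative to the array's 75th percentile, coloured by group. Ly6c2 lies along a line with Ly6c1 (r of 0.995), while Ly6e is lower with Min-U-Sil 5 and in its water than in other groups of like Ly6c1 level (r of 0.814).

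Of all genes with a symbol, those most like Ly6a over the 36 arrays were Ly6c2, Ly6c1, 9030619P08Rik (r of 0.945), Ifit3b (0.925) and Ifi204 (0.917). 9030619P08Rik is a transcribed pseudogene that the RefSeq gene table places between Ly6f and Ly6l on chromosome 15, and it was also among the 5 most like Ly6c1 (0.971) and Ly6c2 (0.970). Its change was 0.85 ± 0.19, 1.13 ± 0.19 and 1.90 ± 0.19 along the NM-203 doses, 1.33 ± 0.19 for DE, 1.11 ± 0.19 for Min-U-Sil 5 and 1.80 ± 0.19 for TPA. Whether its probe takes up signal of the Ly6 genes was not tested. Both Ly6c genes were further most like Ifit3b, an interferon-induced gene with tetratricopeptide repeats (0.924 and 0.927), and Cdc25c, a phosphatase of mitotic entry (0.920 and 0.921). Ly6e instead was most like Scd4, a stearoyl-CoA desaturase (0.923), Aaas, a nuclear pore protein (0.921), Psmb8, an inducible immunoproteasome subunit (0.919), Ly6a and Gm12070 (0.891). After removal of the group means, r with Ly6e was 0.64 for Scd4, 0.74 for Aaas, 0.68 for Psmb8 and 0.67 for Gm12070. With Ly6a, Ly6c1 and Ly6c2 it was 0.74, 0.83 and 0.80 for 9030619P08Rik and 0.90, 0.82 and 0.84 for Ifit3b. It was 0.80 for Ifi204 with Ly6a, and 0.76 and 0.78 for Cdc25c with Ly6c1 and Ly6c2. These genes were picked for their likeness, so their values are a description. Of the 8 that are not Ly6 genes, 2 (Ifit3b and Psmb8) were on the list of interferon stimulated genes.

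Other members of the Ly6 family went in both directions or were not called. Of 49 further family genes listed, 44 had a named probe and 30 were tested. For NM-203 at 5 µg/cm² 2 of them rose and 7 fell, with a median change of -0.11 over the 30, while 14% of all genes rose and 19.1% fell, with a median of 0.01. The complement inhibitor Cd59a fell most clearly, by 1.97 on the log2 scale (SE 0.16, limma adjusted p = 5.93e-11), and Lynx1, a modulator of nicotinic acetylcholine receptors, fell by 0.95 (SE 0.16, adjusted p = 1.37e-05). Ly6g6c, Spaca4, Slurp2 and Ly6h fell too, with changes between -0.62 and -0.45, as did Cd59b, which was well above background on 0 arrays of that dose and on 1 water array. With arrays centred on the median, 5 family genes were called at that dose in place of 9, and 5 without water replicate 3. Plaur, the urokinase receptor, rose by 0.81 ± 0.15 (adjusted p = 3.72e-05), and Lypd10 by 1.44 ± 0.28, with 1 of 4 water arrays above background.

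With Min-U-Sil 5 2 family genes rose and 4 fell, with a median of -0.12, against 11.6% and 13.9% of all genes. Cd59a fell by 1.42 on the log2 scale (SE 0.16, limma adjusted p = 6.70e-08), Lynx1 by 0.66, Ly6g6c by 0.51 and Cd59b, above background on 1 exposed array and on 4 arrays of its water, by 1.37, while Plaur (0.71 ± 0.15) and Lypd10 (0.81 ± 0.28) rose. With TPA 2 of the 30 were called (11.7% of all genes), Lypd10, higher by 1.86 ± 0.28 with 1 of 4 DMSO arrays above background, and Cd59a, with a change of -0.74 ± 0.16 (limma adjusted p = 0.00204), and 1 of them with arrays centred on the median. For NM-203 at 2 µg/cm² 6 rose and 2 fell, against 16.2% and 8.85% of all genes (median 0.10, against 0.11 for all genes): Lypd10 (1.59, with 1 of 4 water arrays above background), Slurp1 (1.18), Lypd2 (0.87), Ly6d (0.82) and Ly6f (0.74) rose, Gml2 (-1.09) and Slurp2 (-0.60) fell, and Lypd4, above background on 2 exposed and 0 water arrays, was at least 1.13-fold higher. No slide or scan day held both that dose and its water. Against the Min-U-Sil 5 water 2 family genes were called at that dose, with the slide or the scan day as a block also 2, and without water replicate 1 or 2 there were 5. For DE and for NM-203 at 1 µg/cm² 0 of the 30 were called by limma, with 3 and 2 at an unadjusted p under 0.05.

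The genes beside the 4 on chromosome 15 were called in both directions. The gene table lists 26 other genes within or next to the cluster (all genes between Ly6e and Ly6c2 and the 10 coding genes on either side), of which 13 were tested, and 15 of the 26 are on the family list above. For NM-203 at 5 µg/cm² 1 of the 13 rose and 3 fell, against 14% and 19.1% of all genes: Lynx1, Slurp2 and Ly6h fell and Gm28068, a locus between Ly6e and Ly6i, rose by 0.91 ± 0.34 (limma adjusted p = 0.0404), with 3 exposed and 1 water arrays above background. Ly6i, the gene between Ly6e and Ly6a, was called in 0 of the 6 comparisons. At 2 µg/cm² 2 rose, Ly6f and Ly6d, and 2 fell, Gml2 and Slurp2 (16.2% and 8.85% of all genes). With Min-U-Sil 5 1 fell, Lynx1 (13.9% of all genes), and 0 of the 13 were called for DE, TPA or NM-203 at 1 µg/cm², with 1, 4 and 1 at an unadjusted p under 0.05.

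Genes known to be induced by interferons, a class that includes the Ly6 genes described here, were called higher in 5 of the 6 comparisons. Of 41 interferon stimulated genes tested besides the 4, 35 rose and 2 fell with NM-203 at 5 µg/cm² (median change 0.88), against 14% and 19.1% of all genes. The antiviral Rsad2 rose by 3.02 ± 0.20 (8.09-fold, limma adjusted p = 1.49e-12), Oasl1, an oligoadenylate synthetase-like gene, by 3.38 ± 0.27, the nucleic acid sensor Zbp1 by 2.43 ± 0.18 and Herc6, a ligase of the ubiquitin-like Isg15, by 2.46 ± 0.18. Ifitm1, a membrane protein that restricts virus entry, fell by 3.10 on the log2 scale (SE 0.20, adjusted p = 4.93e-13), and Ifi27 fell by 1.23. At 2 µg/cm² 33 rose and 2 fell (median 0.79), with Ifi44 (2.14-fold), Zbp1 (1.43 ± 0.18), Tap1 (0.79 ± 0.10) and the falling Ifi27 (-0.94 ± 0.11) having the smallest adjusted p. At that dose, 20 of the 41 were called against the Min-U-Sil 5 water and 23 with only the arrays of both groups.

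With DE, 13 of these 41 genes rose and 1 fell (median 0.51, against 0.557% and 0.449% of all genes), among them Oas3 (1.45 ± 0.20, limma adjusted p = 0.000266), Rsad2 (1.33 ± 0.20) and Zbp1 (0.99 ± 0.18), while Ifi27 fell by 0.74. The number called for DE was 2 with arrays centred on the median, 0 with only the arrays of both groups, 25 with the slide as a block, 5 and 6 without water replicate 3 or 4, and 7 and 8 without DE replicate 3 or 4. With TPA, 21 rose and 2 fell (median 0.43, against 4.89% and 6.78% of all genes), among them Zbp1 (1.34 ± 0.18), Herc6 (1.14 ± 0.18), Oas3 (1.19 ± 0.20) and Cmpk2 (0.93 ± 0.16). With arrays centred on the median, 12 were called for TPA, and 1 on slide 1 alone.

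With Min-U-Sil 5, 12 rose and 2 fell (median 0.16, against 11.6% and 13.9% of all genes), with Oasl1 at 1.99 ± 0.27, Herc6 at 1.44 ± 0.18, Rsad2 at 1.39 ± 0.20 and the falling Ifitm1 at -2.37 ± 0.20 (limma adjusted p = 2.78e-10). With arrays centred on the median 9 were called. At 1 µg/cm² of NM-203 1 gene was called, Ifi27 (-0.61 ± 0.11), at a median change of 0.36, and 0.0862% of all genes were called. At that dose 31 of the 41 had an unadjusted limma p under 0.05, and for DE 36 did. The number called at 1 µg/cm² was 7 without water replicate 1 and 2 without water replicate 2. It was 0 without water replicate 3 or 4 or NM-203 1 µg/cm² replicate 1, 2 or 4. Within single slides the median change of the 41 genes was 0.56, 0.17 and 0.54 at 1 µg/cm² (slides 1, 2 and 3) and 1.19 and 1.12 at 5 µg/cm² (slides 1 and 3). It was 0.59, 0.43 and 0.75 for DE (slides 1, 2 and 3), 0.24 and 0.14 for Min-U-Sil 5 (slides 4 and 5) and 0.25 for TPA (slide 1).

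**Figure D4:**
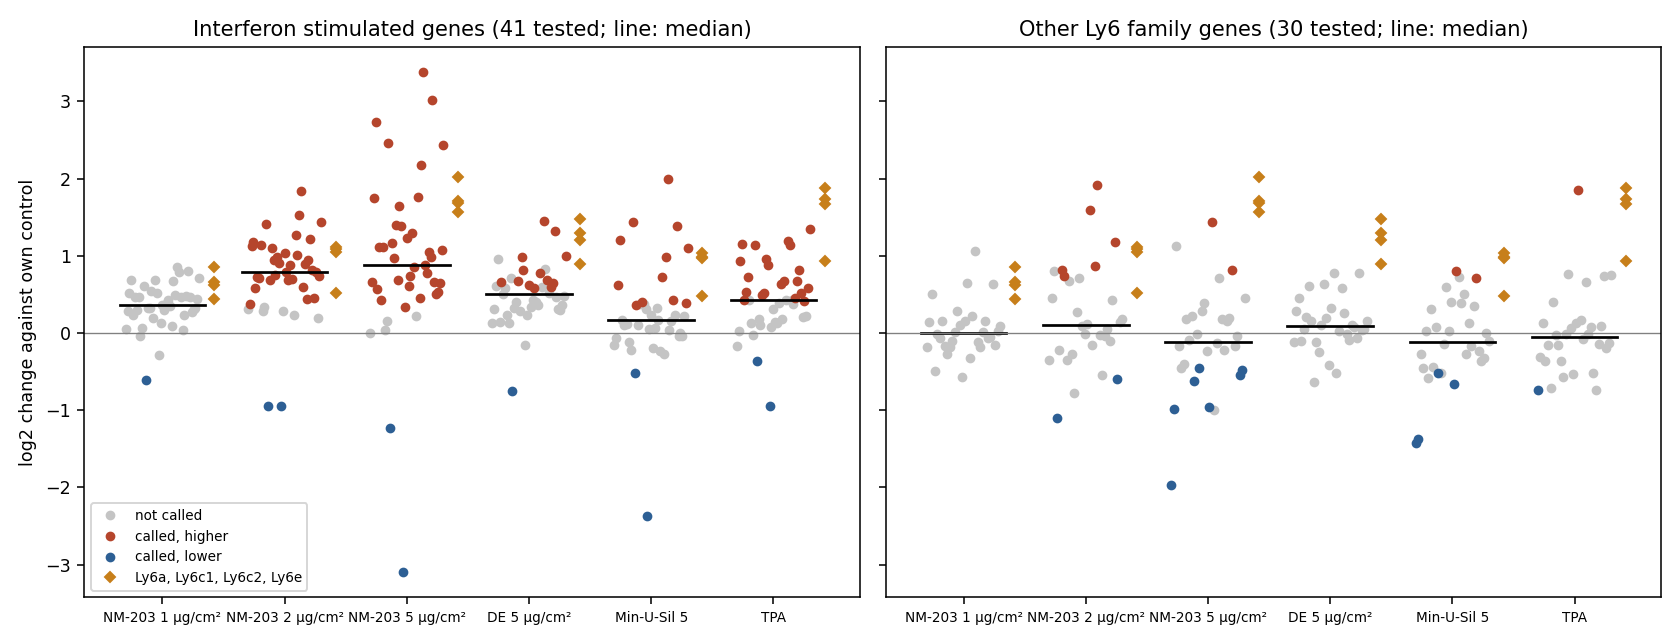
Log2 change of 41 interferon stimulated genes (left) and 30 other Ly6 family genes (right) against own control in each exposure. Points are genes (red called higher, blue called lower, grey not called), black lines are list medians and orange diamonds are Ly6a, Ly6c1, Ly6c2 and Ly6e. With NM-203 at 5 µg/cm², 35 interferon stimulated genes rose against 2 of the other Ly6 family genes.

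The pathway that carries the interferon signal, from ligands through receptors to transcription factors, held genes called in both directions. Of 23 such genes tested, 6 rose and 5 fell with NM-203 at 5 µg/cm² (median 0.13), against 14% and 19.1% of all genes. The transcription factor Irf7 (1.69 ± 0.16) and the feedback protease Usp18 (1.41 ± 0.13, limma adjusted p = 2.50e-10) rose, and Ifngr2, a chain of the interferon-gamma receptor, fell by 0.82. The ligand Ifnb1 (interferon beta), above background on 3 exposed and 1 water arrays, had a change of 1.75 ± 0.36 (adjusted p = 0.000223) and rose. At 2 µg/cm² 8 rose and 1 fell (16.2% and 8.85% of all genes), with Irf7 (1.45 ± 0.16), Usp18 (0.85 ± 0.13) and Irf9 (0.50 ± 0.08) among those that rose. That dose and its water shared no slide or scan day. Mean levels of Irf7, Usp18 and Irf9 were 4.90, 3.78 and 3.04 at that dose and 3.45, 2.92 and 2.54 in water. In the Min-U-Sil 5 water, scanned on the day of that dose, they were 4.25, 3.24 and 2.84. With DE 3 rose (0.557% of all genes), Usp18 (0.64 ± 0.13) and Irf7 (0.71 ± 0.16) among them. With TPA 1 rose and 2 fell, Irf5 and Ifngr2 (-0.54 and -0.42), against 4.89% and 6.78% of all genes. With Min-U-Sil 5 4 rose and 4 fell (11.6% and 13.9% of all genes). Usp18 (0.55 ± 0.13), Ptpn2, a phosphatase that acts on JAK kinases (0.40 ± 0.10), and Ifnb1 (1.05 ± 0.36) were among those that rose, while the receptor chains Ifngr2, Ifngr1 and Ifnar1 and the inhibitor Socs1 fell by 0.60, 0.42, 0.40 and 0.51 on the log2 scale. At 1 µg/cm² 0 of the 23 were called by limma, with 4 at an unadjusted p under 0.05.

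Genes that build, attach and trim the GPI anchor changed in both directions. Of 28 tested, 6 rose and 8 fell with NM-203 at 5 µg/cm², against 14% and 19.1% of all genes, and 9 rose and 8 fell at 2 µg/cm², against 16.2% and 8.85%. At 2 µg/cm², exposed and water arrays shared no slide or scan day. Mean Piga was 0.40 at that dose, -0.57 in water and -0.16 in the Min-U-Sil 5 water, scanned on the day of that dose. In that order Pgap2 read 0.81, 1.47 and 0.86, Pigq 3.96, 3.39 and 3.75, and Dpm1 2.75, 2.31 and 2.42. These 4 had the smallest adjusted p there. With Min-U-Sil 5 4 rose and 8 fell (11.6% and 13.9% of all genes), with TPA 1 rose and 3 fell (4.89% and 6.78%), and 0 were called by limma for DE or the lowest NM-203 dose, with 9 and 2 at an unadjusted p under 0.05. Piga, a subunit of the enzyme that starts anchor synthesis, rose by 0.97 ± 0.14 at 5 µg/cm² (limma adjusted p = 1.51e-06), 0.96 ± 0.14 at 2 µg/cm², 0.80 ± 0.14 with Min-U-Sil 5 and 0.59 ± 0.14 with TPA. Pgap1, which trims a lipid of the new anchor, fell by 1.42 at 5 µg/cm², with Pigz (-1.70 ± 0.20) and Pigv (-1.13 ± 0.15), both mannosyltransferases.

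Fibroblasts and mesenchymal progenitors carry other surface proteins beside Sca-1. Of 17 such genes tested, 0 rose and 7 fell with NM-203 at 5 µg/cm², against 14% and 19.1% of all genes, and 0 rose and 8 fell with Min-U-Sil 5, against 11.6% and 13.9%. The platelet-derived growth factor receptors Pdgfrb (-1.27 ± 0.12) and Pdgfra (-0.99 ± 0.11), the tetraspanin Cd9 (-0.94 ± 0.09) and Pi16 (-2.40 ± 0.25) fell at 5 µg/cm² (limma adjusted p from 7.87e-10 to 1.78e-08). At 2 µg/cm² Cd34 (0.91 ± 0.15) and Mcam (0.82 ± 0.19) rose and 3 fell, Pdgfrb, Eng and Cd9 (16.2% and 8.85% of all genes). No slide or scan day held both that dose and its water. Mean Cd34 was 3.37 at that dose, 2.46 in water and 3.21 in the Min-U-Sil 5 water, scanned on the day of that dose. In that order Mcam read 3.88, 3.06 and 3.39, Pdgfrb 1.04, 1.75 and 1.04, Eng -2.42, -2.03 and -2.39, and Cd9 4.26, 4.50 and 4.40. With TPA 1 fell, Vcam1 (6.78% of all genes), and 0 were called by limma for DE or 1 µg/cm², with 1 each at an unadjusted p under 0.05.

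Of 14 fibroblast markers, 13 were above background on all 36 arrays, and Fap on 15. In bulk RNA, fewer cells of a type and less RNA per cell cannot be told apart. With NM-203 at 5 µg/cm² 11 of the 14 fell, as did 11 with Min-U-Sil 5, 5 at 2 µg/cm² and 5 with TPA, against 19.1%, 13.9%, 8.85% and 6.78% of all genes, and 0 were called by limma for DE or 1 µg/cm², with 4 each at an unadjusted p under 0.05. Its summed level (linear, in units of the 75th percentile) ran from 653 to 866 with NM-203 at 5 µg/cm², against 1049 to 1173 in water, and from 809 to 892 with Min-U-Sil 5, against 1047 to 1475 in its water. It ran from 965 to 1055 with TPA, against 1142 to 1279 in DMSO. The part of this shift in the Ly6 values was not tested.

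Ly6C is best known on monocytes and Ly6a also on blood and endothelial cells. Ptprc, the pan-leukocyte CD45 gene, and Ccr2, the chemokine receptor of Ly6C-high monocytes, were above background on 0 of 36 arrays, and 6 of 11 macrophage and monocyte markers were above it on all, among them Itgam and Csf1r. The linear summed level of that list weighed bright genes most, here Itgam (mean log2 level 3.88 over the 36 arrays) and Csf1r (1.45). That sum was 16.1 to 21.4 with NM-203 at 5 µg/cm², 10.8 to 17.9 at 2 µg/cm² and 21.2 to 29.5 with DE, against 19.9 to 28.5 in water. It was 13.3 to 17.0 with Min-U-Sil 5, against 14.5 to 21.4 in its water, and 22.4 to 27.3 with TPA, against 20.4 to 24.9 in DMSO. Of 7 such markers tested, Lyz2 (-1.50), Aif1 (-1.72) and Itgam (-0.45) fell with NM-203 at 5 µg/cm². Itgam fell (-0.82) and Aif1 rose (0.50) at 2 µg/cm², where Adgre1, the F4/80 antigen, was called higher with 1 exposed and 0 water arrays above background. That dose and its water shared no slide or scan day. Mean levels of Itgam, Aif1 and Adgre1 were 3.36, -0.85 and -5.88 at that dose and 4.19, -1.35 and -7.45 in water. In the Min-U-Sil 5 water, scanned on the day of that dose, they were 3.64, -0.50 and -5.07. Aif1 and Lyz2 fell with Min-U-Sil 5 (-1.39 and -0.81) and with TPA (-0.68 and -0.55), and 0 of the 7 were called by limma for DE or 1 µg/cm², with 0 each at an unadjusted p under 0.05.

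Of the endothelial markers, Tek and Tie1 were above background on 0 arrays, and 2 of 7 were above it on all. Their summed level was 0.197 to 0.302 with NM-203 at 5 µg/cm², 0.273 to 0.490 at 2 µg/cm² and 0.381 to 0.533 with DE, against 0.358 to 0.457 in water. It was 0.362 to 0.611 with Min-U-Sil 5, against 0.445 to 0.792 in its water, and 0.362 to 0.399 with TPA, against 0.328 to 0.427 in DMSO. Cdh5, the endothelial cadherin, was above background on 0 arrays of NM-203 at 5 µg/cm², Min-U-Sil 5 and TPA and on all arrays of their controls, and was at least 2.88-fold, 3.13-fold and 2.38-fold lower there, with a change of -1.95 at 2 µg/cm² (limma adjusted p from 1.51e-09 to 0.000123). Emcn, at least 1.44-fold lower, and Vwf (-0.97) also fell at 5 µg/cm². Of 7 T cell markers on the array, 4 were above background on all arrays. Cd4 (mean log2 level 0.90 over the 36 arrays) and Cd3e (0.42) weighed most in the summed level of that list. That sum was 3.83 to 4.50 with NM-203 at 5 µg/cm², 1.92 to 4.10 at 2 µg/cm² and 2.89 to 4.95 with DE, against 3.39 to 4.14 in water. It was 2.48 to 3.68 with Min-U-Sil 5, against 2.32 to 4.19 in its water, and 2.89 to 4.70 with TPA, against 4.07 to 5.79 in DMSO. Cd3g was called lower with NM-203 at 5 µg/cm², Min-U-Sil 5 and TPA, where 0 exposed arrays and 2, 0 and 3 control arrays had it above background. Of 6 epithelial markers, the adhesion gene Epcam was above background on 0 of the 36 arrays, Cdh1 on 1, Krt19 on 2, Krt18 on 10, Cldn4 on 34 and the keratin Krt8 on all. Krt8 fell with NM-203 at 5 µg/cm² (-1.66), Min-U-Sil 5 (-0.94) and TPA (-0.83). The part of any of these markers in the Ly6 values was not tested.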

How the data were processed

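Per the labels, each sample's Cy3-labelled RNA was hybridised to its own 1-colour Agilent array, and per the file headers and the submitters' processing notes the authors used Agilent Feature Extraction 11.0.1.1 to obtain the intensity of each spot, subtracting background without scaling between arrays. Processed intensity (62976 spots per array, 59305 of them not controls) was divided by the array's 75th percentile (531 to 1542), put on the log2 scale and averaged over spots of a probe, without outlier spots. Between 55.1% and 76.2% of probes per array were well above background, and 0 spots were saturated. The deposited value table holds the authors' log2 values, centred by probe, with the scaling before that not given in the sources used here. It served as an alternative, and 3 of its Min-U-Sil 5 columns matched another replicate of that group.

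Accessions named 32994 of 56605 probes (22911 genes) through the RefSeq table of GRCm38.p6. The array was designed on mm9, so no gene coordinates are given, and promoter windows carry RefSeq's. Ly6g, Ly6a2, Ly6g2 and Ly6l had no named probe and are not analysed here. A probe entered the test if 3 or more arrays of some group had it well above background, and the brightest stood for its gene. limma 3.58.1 in R 4.3.3 fitted 9 group means (27 residual degrees of freedom). The p-values were adjusted over all 32492 gene names. An "at least" fold divides the brighter mean by a floor for the dim group, averaged over its arrays: the probe's signal or, if higher, the lowest signal well above background. The fit was tested on simulated data, with log2 changes of 1 and of 2 set in 100 genes each for NM-203 at 5 µg/cm². It called 55% of the former and 81% of the latter, and 5.56% of its calls were false. A gene that was not called may thus still have changed. Promoters were aligned with Biopython 1.88 in Python 3.11.15, and figures drawn with matplotlib 3.10.9. The 4 genes, the lists and the tests were chosen with earlier results of these data known. Named are the 4 genes, the 5 genes most like each, the called Ly6 family and neighbouring genes, up to 4 genes per list and comparison with the smallest adjusted p, and markers above background on no array. Ifi27 and Ifitm1 as falling genes, the receptor genes that fell with Min-U-Sil 5, Ptpn2, Ifnb1, Oasl1, Pigz and the markers with values were in part singled out after their values were seen. Same-numbered samples did not pair: in none of the 6 comparisons did all 4 same-numbered pairs correlate above 0.1 in their deviations from the group means. Alternatives were another background correction, scaling, filter, probe rule, sample set, array weights and blocks for slide, scan day and replicate number. A gene of the interferon signalling list is counted there, but its own values are not reported here.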

Additional observations from a re-analysis of the deposited data

How the results depend on the processing

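All 504 alternative changes of the 4 genes in the 6 comparisons were above 0. They refit the same 36 arrays for genes chosen on these contrasts, so their common sign is no independent support. Of these changes, 23 moved by more than 1 SD between replicates. The median change of the 4 genes moved by more than that SD (0.29) in 6 of 78 cases that kept all replicates or took 1 slide: for NM-203 at 2 µg/cm² 1.55 with slide blocks and 1.37 with scan-day blocks, for TPA 2.06 with the slide as a block, and within slides 1.02 for NM-203 at 1 µg/cm² (slide 3), 2.47 at 5 µg/cm² (slide 1) and 1.81 for DE (slide 1). Without 1 replicate the medians ran from 0.47 to 0.81, 0.91 to 1.24 and 1.53 to 1.87 along the NM-203 doses, 1.09 to 1.43 for DE, 0.84 to 1.07 for Min-U-Sil 5 and 1.61 to 1.81 for TPA. The number of interferon stimulated genes called was 1, 35 and 37 along the NM-203 doses, 14 for DE, 14 for Min-U-Sil 5 and 23 for TPA. Centring arrays on the median gave 0 at 1 µg/cm², 2 for DE, 9 for Min-U-Sil 5 and 12 for TPA. Fits of both groups alone gave 0 at 1 µg/cm², 23 at 2 µg/cm² and 0 for DE. At 1 µg/cm² no filter gave 0, array weights 7, the slide as a block 5 and single slides 0. For DE the slide as a block gave 25 and slides 1, 2 and 3 gave 2, 0 and 8. Slide 5 gave 5 for Min-U-Sil 5, slide 1 gave 1 for TPA, and the Min-U-Sil 5 water gave 20 at 2 µg/cm². These within-slide fits rest on 1 to 3 arrays per group. For the other changes with the setting the cause was not tested. Without 1 replicate the counts ran from 0 to 7, 33 to 36 and 34 to 37 along the doses, 5 to 19 for DE, 13 to 15 for Min-U-Sil 5 and 19 to 24 for TPA. The replicate block, for numbers that do not pair the samples, left the medians at 0.64, 1.07, 1.70, 1.26, 0.98 and 1.70 in the order above and the counts at 1, 35, 37, 13, 14 and 22. Of all calls, the share that was higher went to 77.8% for DE and 55.6% for TPA with median centring, against 55.4% and 41.9%, and to 52.1% for NM-203 at 5 µg/cm², against 42.4%. That centring left 21 genes called higher and 6 lower for DE, against 181 and 146, and 4419 and 4065 for NM-203 at 5 µg/cm², against 4549 and 6191. At 1 µg/cm² 14 genes were called higher and 14 lower, against 0 and 1 with that centring. The number of arrays limits every value, and dim family genes are bounded by background.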
